A study of Bos taurus with 12 samples.

Results

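IFNT2, PTGS2, PAG11 and PRL were described as a group of 4 genes, of a trophoblast interferon, a prostaglandin synthase, a pregnancy-associated glycoprotein and a hormone. Members were all probe sets that the platform annotation assigned to exactly 1 of these symbols, which gave 11 of the 24016 probe sets tested: 1 for IFNT2, 3 for PTGS2, 1 for PAG11 and 6 for PRL. The 4 genes stood among 9155 named by at least 1 probe set. The rule used only the annotation, while the 4 genes were picked with earlier results of these data known.

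IFNT2 encodes an interferon tau, the protein that ruminant trophoblast secretes to signal pregnancy to the uterus. PTGS2 (cyclooxygenase-2) converts arachidonic acid into the precursor of all prostaglandins. PAG11 is one of the pregnancy-associated glycoproteins, relatives of the aspartic proteases that trophoblast cells make in abundance after implantation. PRL encodes prolactin, a pituitary hormone whose ruminant relatives, the placental lactogens and prolactin-related proteins, come from the placenta.

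The study set embryos from oocytes of prepubertal heifers, aged 9 to 12 months, against embryos from oocytes of adult cows, whose age was not given in the sources used here. All 4 groups were Japanese Black cattle embryos made by in vitro maturation, fertilization with thawed frozen semen and in vitro culture, and all were picked for normal morphology. Prepubertal blastocysts and adult blastocysts were expanded, not yet hatched, and came in pools of 10 from day 7. Prepubertal and adult 8-16-cell embryos came in pools of 50 from day 3 of culture, 70 to 72 h post-insemination. Each group had 3 arrays, labelled as biological replicates. No label says if any pools had animals, semen or culture days in common, so p-values refer to these pools only. Stage, day and pool size changed together and cannot be told apart. In whole embryos, fewer cells of a type and less RNA per cell cannot be told apart either.

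Values are MAS5 signals made by the authors, a brightness per probe set on a linear scale, with nearly the same trimmed mean on each array. The brightest of the 27 Bacillus subtilis controls on an array served as its background, and a probe set is called above background where its signal exceeded that. Backgrounds ranged from 122 to 424 on 11 arrays. Prepubertal 8-16-cell replicate 3 stood apart with a background of 1664 and 1255 probe sets above it, where the other arrays had 4297 to 8500. Of 4 measured trophectoderm markers, the keratins KRT8 and KRT18 were above background on all 6 blastocyst arrays (KRT18 also on 1 prepubertal 8-16-cell array), and the oocyte growth factor BMP15 on all 6 arrays of 8-16-cell embryos and on none of the 6 blastocyst arrays. The trophectoderm transcription factors did not follow the keratins: TEAD4 was above background on 5 blastocyst arrays and on 2 adult 8-16-cell arrays, and ELF5 on no blastocyst array and on 1 prepubertal 8-16-cell array. Of the 5 measured oocyte markers, GDF9 and ZP4 were each above background on 2 prepubertal and 3 adult 8-16-cell arrays and on no blastocyst array. NLRP5 and ZP3 did not follow BMP15. Neither was above background on any 8-16-cell array, while NLRP5 was on 1 prepubertal and ZP3 on 1 adult blastocyst array. Differences are log2 differences of signal + 16 with their standard error (SE), tested with limma across all probe sets, and a difference was called at a Benjamini-Hochberg adjusted p of 0.05.

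**Figure D1:**
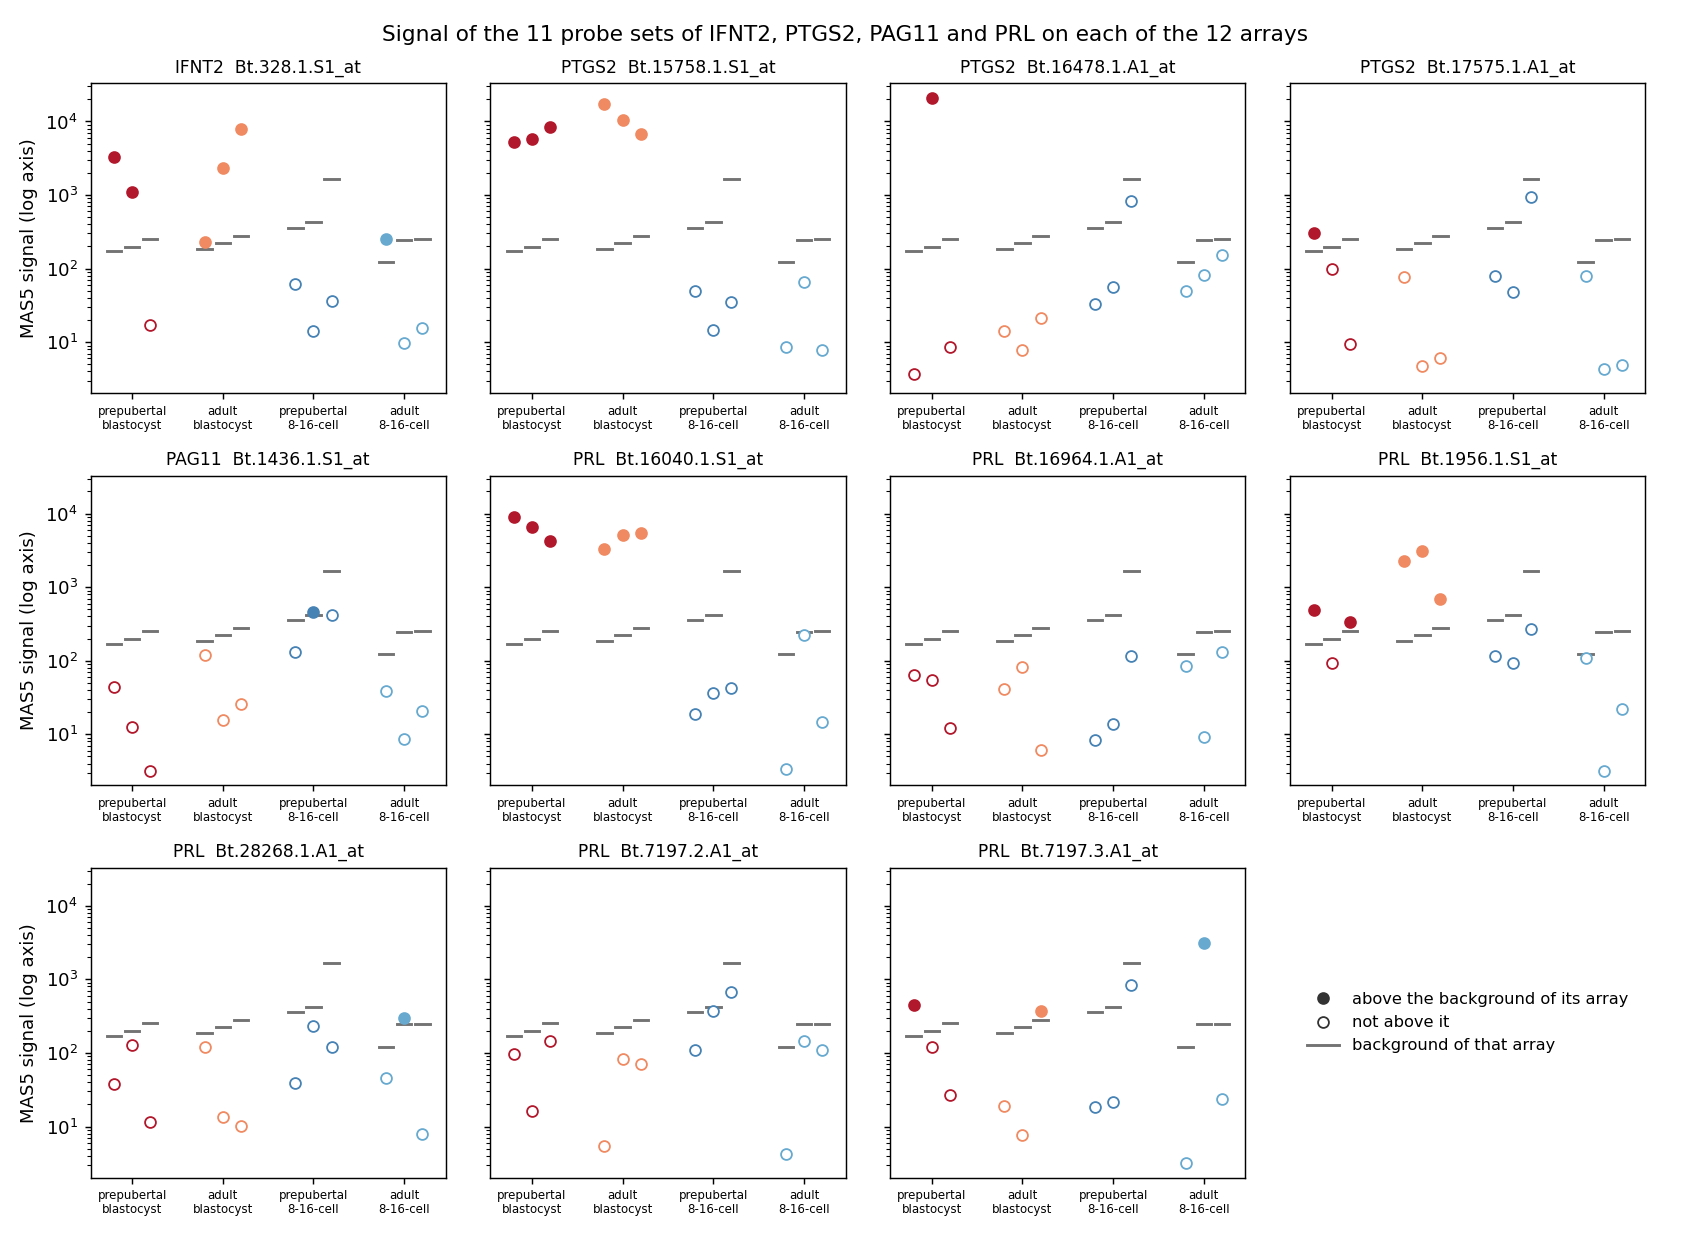
MAS5 signal (log axis) of each of the 11 probe sets on each of the 12 arrays, by group; filled points lay above the background of their array (grey bar), open points did not. PTGS2 Bt.15758.1.S1_at and PRL Bt.16040.1.S1_at are above background on all 6 blastocyst arrays and on no 8-16-cell array, and IFNT2 spreads from 17.0 to 7991 among blastocysts.

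IFNT2, the interferon, was bright in most blastocyst pools and spread widely between them. Its probe set, Bt.328.1.S1_at, had signals of 3292, 1107 and 17.0 in the 3 pools of prepubertal blastocysts, and of 231, 2350 and 7991 in adult blastocysts. The 8-16-cell embryos had 62.5, 14.1 and 36.6 with prepubertal oocytes, and 255, 9.79 and 15.4 with adult oocytes. Prepubertal blastocyst replicate 3 was thus within the range of the 8-16-cell pools, and adult 8-16-cell replicate 1 was brighter than adult blastocyst replicate 1. The signal was above background in 2 of 3 prepubertal blastocyst pools, 3 of 3 adult blastocyst pools, 0 of 3 prepubertal 8-16-cell pools and 1 of 3 adult 8-16-cell pools. The highest of the prepubertal blastocyst pools was 194 times the lowest, and the highest of the adult blastocyst pools 34.6 times the lowest.

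By group mean on the log2(signal + 16) scale, IFNT2 stood at 8.96 ± 3.48 in prepubertal blastocysts, 10.71 ± 2.55 in adult blastocysts, 5.64 ± 0.70 in prepubertal 8-16-cell embryos and 5.91 ± 1.88 in adult 8-16-cell embryos (SD, n = 3 each). Adult blastocysts were thus highest and prepubertal 8-16-cell embryos lowest, and each pair of groups next to each other in that order overlapped. Averaged over both oocyte origins, IFNT2 was higher in blastocysts by 4.05 (SE 1.05, limma adjusted p = 0.00489). That SE comes mostly from a variance pooled over probe sets, so it does not measure the spread of IFNT2 between these pools. An exact two-sided permutation of stage within origin gave p = 0.035, where the smallest of its 400 arrangements is 0.005. Within one origin the difference was not called: 3.32 in prepubertal embryos (SE 1.48, limma adjusted p = 0.27) and 4.79 in adult embryos (SE 1.48, limma adjusted p = 0.0597). With all signals raised to the highest background on any array, 1664, the averaged difference was 0.62 and was not called, and with a floor at the highest background of the other 11 arrays, 424, it was 1.81 and was not called. IFNT2 is one of a cluster of near-identical genes, and which of them gave the signal was not tested.

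Prepubertal blastocyst replicate 3, the pool with an IFNT2 signal of 17.0, was mixed by other markers. KRT18 had a signal of 29790 there and PTGS2 Bt.15758.1.S1_at one of 8304, both within the range of the other blastocyst pools. KRT8 was lower in it, at 573, against 2306 to 16213 in the other blastocyst pools. TEAD4 had 4625 in it, the highest of the 12 arrays, while adult blastocyst replicate 1 had 5.78. ELF5 was at background there, at 25.6, as on the other blastocyst arrays. The oocyte gene NLRP5 was above background on this array alone, with 283 over a background of 254, and the oocyte gene BMP15 was at 13.6 in it.

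PTGS2, the prostaglandin synthase, gave the largest change of the members. Its probe set Bt.15758.1.S1_at had signals of 5245, 5763 and 8304 in prepubertal blastocysts and of 17529, 10347 and 6650 in adult blastocysts. In 8-16-cell embryos it had 49.2, 14.5 and 35.5 with prepubertal oocytes and 8.64, 64.9 and 7.94 with adult oocytes. All 6 blastocyst pools were above background and all 6 pools of 8-16-cell embryos were below it, so the stages did not overlap. On the log2(signal + 16) scale the group means were 12.63 ± 0.35 in prepubertal blastocysts, 13.38 ± 0.70 in adult blastocysts, 5.55 ± 0.56 in prepubertal 8-16-cell embryos and 5.18 ± 1.0 in adult 8-16-cell embryos (SD, n = 3 each). The 2 blastocyst groups overlapped with each other, and so did the 2 groups of 8-16-cell embryos.

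Averaged over both origins, PTGS2 Bt.15758.1.S1_at was higher in blastocysts by 7.64 (SE 1.03, limma adjusted p = 2.37e-09), the 8th largest rise of the 24016 probe sets. An exact permutation of stage gave p = 0.005, the smallest possible. In prepubertal embryos it was higher by 7.08 (SE 1.46, limma adjusted p = 0.000602), and in adult embryos by 8.20 (SE 1.46, limma adjusted p = 5.70e-05). Since the 8-16-cell signals were not above background, the folds are bounds: with each 8-16-cell signal raised to its array's background, and on the scale of signal + 16, PTGS2 was at least 9.73-fold higher in prepubertal blastocysts and at least 50.0-fold higher in adult blastocysts. The prepubertal call ended with signals floored at 1664 (difference 1.91, limma adjusted p = 0.108), and remained with a floor at 424 (difference 3.85, limma adjusted p = 0.00678).

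The other PTGS2 probe sets did not follow it. Bt.16478.1.A1_at had a signal of 21146 in prepubertal blastocyst replicate 2 and was not above background on any other array, with 3.65 and 8.47 in the other 2 prepubertal blastocyst pools, 7.89 to 21.4 in adult blastocysts, 33.0 to 836 in prepubertal and 50.4 to 153 in adult 8-16-cell embryos. Bt.17575.1.A1_at was above background only in prepubertal blastocyst replicate 1, at 308. Their differences between stages averaged over origins were -0.60 (SE 0.99) and -0.42 (SE 0.84), neither called by limma (adjusted p = 0.848 and 0.883). A statement on PTGS2 therefore rests on 1 of its 3 probe sets.

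PAG11, the pregnancy-associated glycoprotein, was above background on 1 array in 12. Its probe set, Bt.1436.1.S1_at, had 43.9, 12.4 and 3.20 in prepubertal blastocysts and 120, 15.6 and 26.2 in adult blastocysts. It had 131, 456 and 424 in prepubertal 8-16-cell embryos, against 38.4, 8.70 and 20.4 in adult 8-16-cell embryos. That array was prepubertal 8-16-cell replicate 2, with 456 over a background of 424. The 3 prepubertal 8-16-cell arrays also had the 3 highest backgrounds of the series, 356, 424 and 1664, and the part of this in their PAG11 signals was not tested.

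By group mean PAG11 stood at 5.00 ± 0.83 in prepubertal blastocysts, 5.82 ± 1.11 in adult blastocysts, 8.29 ± 0.94 in prepubertal 8-16-cell embryos and 5.19 ± 0.57 in adult 8-16-cell embryos (log2(signal + 16), SD, n = 3 each). Prepubertal 8-16-cell embryos were highest, and the other 3 groups overlapped with one another. Prepubertal blastocysts were lower than prepubertal 8-16-cell embryos by a log2 difference of -3.29 (SE 1.17, limma adjusted p = 0.122), and prepubertal 8-16-cell embryos differed from adult ones by 3.10 (SE 1.17, limma adjusted p = 0.429). In both pairs the 3 arrays of one group lay above the 3 of the other, as they did in these directions at 9.24% and 10% of all probe sets. The exact permutation test gave p = 0.1 for each, the smallest possible, and neither difference was called. In adult embryos the stage difference was 0.63 (SE 1.17, limma adjusted p = 0.944).

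PRL, prolactin, had 1 probe set above background on all 6 blastocyst arrays, a second on 5 of them, and 4 that were mostly at background. Bt.16040.1.S1_at had signals of 8975, 6658 and 4212 in prepubertal blastocysts and 3321, 5090 and 5516 in adult blastocysts, against 19.1, 36.9 and 42.4 in prepubertal and 3.36, 222 and 14.7 in adult 8-16-cell embryos. All 6 blastocyst pools were above background and all above every 8-16-cell pool, none of which passed its background. The 222 of adult 8-16-cell replicate 2 did pass the second brightest control of that array, 211. The group means were 12.63 ± 0.55 in prepubertal blastocysts, 12.15 ± 0.39 in adult blastocysts, 5.58 ± 0.39 in prepubertal and 5.70 ± 1.93 in adult 8-16-cell embryos (log2(signal + 16), SD, n = 3 each), with overlap within each stage. It was higher in blastocysts by 6.75 averaged over origins (SE 1.04, limma adjusted p = 2.26e-07, exact permutation p = 0.005, the smallest possible), by 7.05 in prepubertal embryos (SE 1.47, limma adjusted p = 0.000723) and by 6.45 in adult embryos (SE 1.47, limma adjusted p = 0.00367). As bounds, it was at least 9.74-fold higher in prepubertal and at least 21.3-fold higher in adult blastocysts. With signals floored at 1664 neither call within an origin remained (differences 1.91 and 1.44), and with a floor at 424 both did (3.85 and 3.37).

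The second PRL probe set, Bt.1956.1.S1_at, had 495, 94.6 and 335 in prepubertal blastocysts, against 2298, 3124 and 685 in adult blastocysts, and these groups did not overlap, as at 3.78% of all probe sets in that direction. Only the 94.6 was below background. In 8-16-cell embryos it had 118, 92.2 and 272 with prepubertal oocytes and 111, 3.14 and 22.1 with adult oocytes, all below background. It was called higher in adult blastocysts than in adult 8-16-cell embryos, by 5.25 (SE 1.45, limma adjusted p = 0.0261, at least 8.07-fold). This call was lost in 4 of 12 fits that each left out 1 array (adult 8-16-cell replicate 2 or 3, adult blastocyst replicate 1 or 2), with limma adjusted p between 0.0986 and 0.143. In prepubertal embryos the difference was 0.75 (SE 1.45, limma adjusted p = 0.875) and averaged over origins 3.00 (SE 1.03, limma adjusted p = 0.0571). The difference between prepubertal and adult blastocysts, -2.67 (SE 1.45), had an unadjusted p of 0.0674 in limma and an adjusted p of 0.9996. The exact permutation test of it gave p = 0.1, the smallest that 3 arrays against 3 can give.

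The other 4 PRL probe sets were mostly at background. Bt.16964.1.A1_at ranged from 6.18 to 131 and Bt.7197.2.A1_at from 4.23 to 680 with no array above background. Bt.28268.1.A1_at was above background only in adult 8-16-cell replicate 2, at 302. Bt.7197.3.A1_at was above it in 3 arrays of 3 different groups: 453 in prepubertal blastocyst replicate 1, 370 in adult blastocyst replicate 3 and 3093 in adult 8-16-cell replicate 2. Averaged over origins, the stage differences of these 4 lay between -1.17 and -0.14, and limma called none. The names of Bt.7197.2.A1_at and Bt.7197.3.A1_at share their stem with Bt.7197.1.S1_at, which the annotation assigns to the prolactin-related protein PRP4. PRP4 had no array above background, at 4.58 to 203 in blastocysts and 3.87 to 245 in 8-16-cell embryos.

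**Figure D2:**
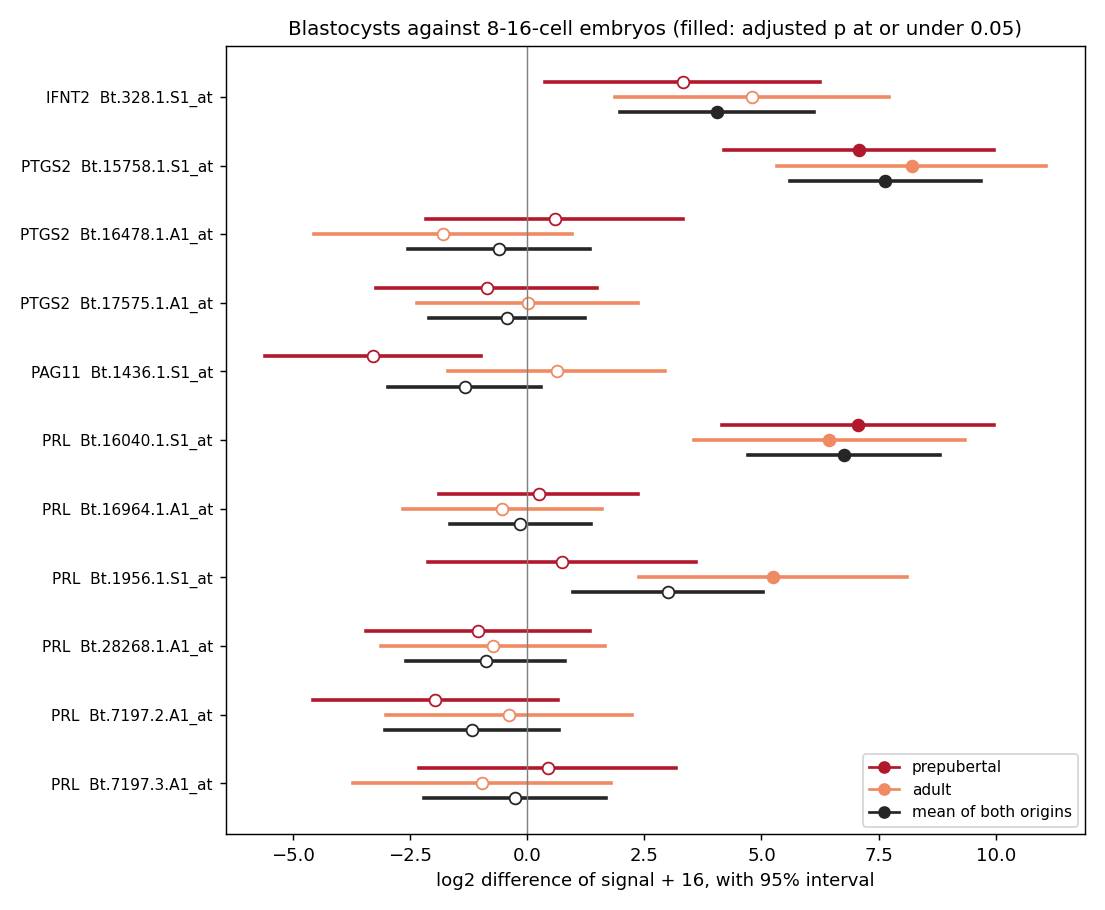
Log2 difference of signal + 16, blastocyst minus 8-16-cell, with its 95% interval, for the 11 probe sets in prepubertal embryos, in adult embryos and averaged over both; filled points had a limma adjusted p at or under 0.05. PTGS2 Bt.15758.1.S1_at (7.08, 8.20 and 7.64) and PRL Bt.16040.1.S1_at (7.05, 6.45 and 6.75) have the largest differences. In adult embryos their intervals overlap those of PRL Bt.1956.1.S1_at (5.25) and IFNT2 (4.79).

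Counted over the members, blastocysts were higher at 2 of 11 probe sets in prepubertal embryos, where 1.43% of all probe sets were called higher. They were higher at 3 of 11 in adult embryos, where 1.26% were, and at 3 of 11 averaged over both origins, where 3.9% were. The last 3 were IFNT2, PTGS2 Bt.15758.1.S1_at and PRL Bt.16040.1.S1_at. Every blastocyst array lay above every 8-16-cell array at 2 of the 11, PTGS2 Bt.15758.1.S1_at and PRL Bt.16040.1.S1_at, where 2.17% of all probe sets did so. Of the 11, 0 were called lower in blastocysts by limma in any of these comparisons, where 0.912% of all probe sets were in prepubertal embryos, 0.87% in adult embryos and 2.51% averaged over origins, so a count of 0 is near the background. Over all probe sets the median difference was -0.37 in prepubertal embryos, 0.08 in adult embryos and -0.17 averaged. Quantile normalization moved these medians to -0.12, -0.03 and -0.10, and the called member differences, 4.05 or more, lay outside these shifts.

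Oocyte origin separated no member at the threshold. In blastocysts, limma called 0 of 11 member probe sets and 0% of all probe sets (0 of 24016, with 884 at an unadjusted p under 0.05). In 8-16-cell embryos it called 0 of 11 members and 0.0208% of all (5 of 24016, with 2166 at an unadjusted p under 0.05). Between prepubertal and adult blastocysts PTGS2 Bt.15758.1.S1_at differed by -0.75 (95% interval -3.63 to 2.12) and PRL Bt.16040.1.S1_at by 0.48 (95% interval -2.42 to 3.37). Both intervals span 0. IFNT2 differed by -1.75 (95% interval -4.68 to 1.17), and without prepubertal blastocyst replicate 3 by 0.21, so its direction rested on that pool. The interval comes mostly from a variance pooled over probe sets and does not measure the spread between these pools. The SDs of IFNT2 were 3.48 in prepubertal and 2.55 in adult blastocysts, and the exact permutation test gave p = 0.6. PTGS2 Bt.16478.1.A1_at differed by 2.85 (SE 1.39, unadjusted p = 0.0419 in limma), and of the 6 signals only the 21146 was above background. The exact permutation test of it gave p = 0.9.

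At the 8-16-cell stage, the median of all probe sets was 0.59 higher in prepubertal than in adult embryos, and 0.05 higher after quantile normalization. In blastocysts these medians were 0.16 and -0.000899. PAG11 (3.10), PTGS2 Bt.17575.1.A1_at (2.38), PRL Bt.7197.2.A1_at (2.12) and PRL Bt.1956.1.S1_at (1.83) had the largest differences of the members at the 8-16-cell stage. For these 4 probe sets, 1 of the 12 signals from 8-16-cell prepubertal arrays was above background and none of those from 8-16-cell adult arrays.

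The change between stages was also compared between oocyte origins. limma called 0 of 11 member probe sets and 0% of all probe sets (0 of 24016, with 1307 at an unadjusted p under 0.05). For PRL Bt.1956.1.S1_at the stage change was smaller in prepubertal than in adult embryos by a log2 difference of -4.50 (SE 2.05, limma adjusted p = 0.902), and for PAG11 the difference was -3.92 (SE 1.65, limma adjusted p = 0.873). It was -1.12 (SE 2.06) for PTGS2 Bt.15758.1.S1_at, 0.60 (SE 2.08) for PRL Bt.16040.1.S1_at and -1.48 (SE 2.10) for IFNT2.

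**Figure D3:**
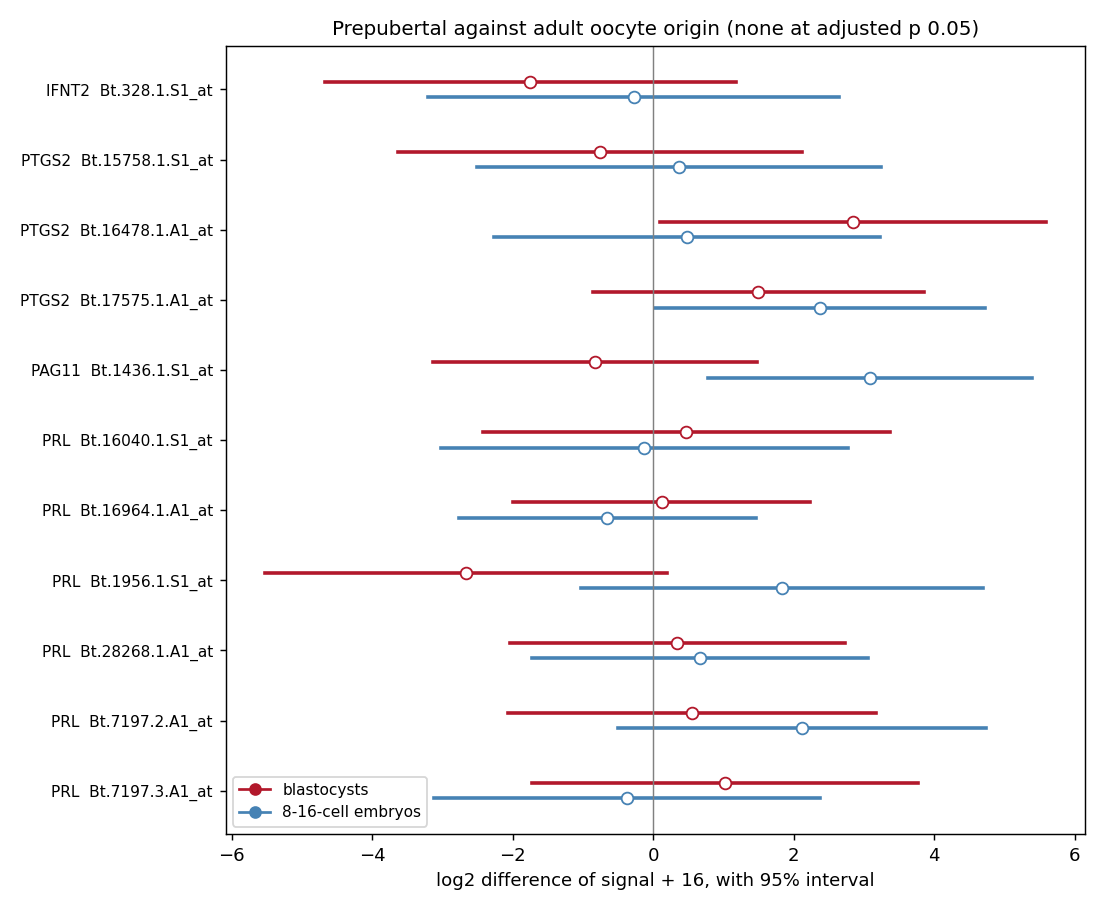
Log2 difference of signal + 16, prepubertal minus adult, with its 95% interval, for the 11 probe sets in blastocysts and in 8-16-cell embryos. No difference passed an adjusted p of 0.05, and IFNT2 in blastocysts spans -4.68 to 1.17. The intervals come mostly from a variance pooled over probe sets.

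Genes of the same pathways, and early trophoblast products, were then described from 8 lists, with the probe set of highest mean standing for a gene. Over the 9155 genes, 6.35% were called higher in blastocysts and 3.53% lower, averaged over both origins, and the median difference was -0.04. In the interferon tau family and its receptors, 5 genes were measured, 1 was called higher (IFNT2) and 0 lower, with a median of 0.63. The receptor subunits IFNAR1 and IFNAR2, through which interferon tau acts, differed by -0.11 and 0.63 and were above background on 0 and 2 of the 12 arrays. IFNAC, an interferon alpha, differed by 0.97 (limma adjusted p = 0.625).

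Of 11 factors and receptors known to act on trophoblast interferon, 1 was called higher and 0 lower, with a median of 0.77. JUN, a subunit of the transcription factor AP-1, had 4658, 6583 and 2601 in prepubertal blastocysts and 3538, 4557 and 514 in adult blastocysts, against 14.4 to 290 in prepubertal and 15.9 to 336 in adult 8-16-cell embryos. Its difference was 5.15 (SE 1.05, limma adjusted p = 0.000149), on 1 of its 5 probe sets. The pluripotency factor POU5F1, which restrains interferon tau transcription in trophoblast cells, differed by 2.98 (limma adjusted p = 0.067). ETS2, an activator of interferon tau genes, differed by 2.51 on its brighter probe set (limma adjusted p = 0.142), while its dimmer one, named after its values were seen, was called at 3.45 (limma adjusted p = 0.0134).

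Of 18 genes of the interferon response, 0 were called by limma in either direction averaged over both origins (1 at an unadjusted p under 0.05, where 21.8% of all genes were), and the median was -0.05. None was above background on all 3 arrays of any group, as 35.7% of all genes were in at least 1 group. On all 12 arrays 7 were at background, where 15.3% of all genes were. The antiviral GTPase gene MX1 ranged from 9.26 to 146 in blastocysts and from 3.82 to 47.7 in 8-16-cell embryos. The ubiquitin-like ISG15, a classical target of interferon tau in the uterus, ranged from 7.62 to 427 in blastocysts and from 7.53 to 301 in 8-16-cell embryos. The smallest p of the list were those of OAS1X (-1.71, limma adjusted p = 0.199), an oligoadenylate synthetase, and RSAD2 (1.5, limma adjusted p = 0.325), the antiviral protein viperin.

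Of 20 genes of prostaglandin synthesis, transport and breakdown, 3 were called higher and 0 lower, with a median of -0.15. Besides PTGS2 these were PTGES and PTGR1. PTGES, the inducible prostaglandin E synthase, had 1897, 1304 and 901 in prepubertal blastocysts and 1630, 830 and 2026 in adult blastocysts. It had 19.1, 350 and 29.8 in prepubertal and 116, 194 and 104 in adult 8-16-cell embryos. All 6 blastocyst pools were above all 6 pools of 8-16-cell embryos, with a difference of 3.61 (SE 1.04, limma adjusted p = 0.0149).

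PTGR1, a reductase that inactivates prostaglandins and leukotrienes, had 1763 to 2906 in prepubertal and 1849 to 2749 in adult blastocysts, against 26.2 to 308 in prepubertal and 7.00 to 148 in adult 8-16-cell embryos. Its difference was 4.70 (SE 1.04, limma adjusted p = 0.000622), and its other probe set was not called. The constitutive synthase PTGS1 and HPGD, the main prostaglandin-degrading dehydrogenase, were not called. PTGES3, a co-chaperone also known as cytosolic prostaglandin E synthase, was bright throughout, at 28841 to 52032 in blastocysts and 53293 to 84282 in 8-16-cell embryos.

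Of 10 prostaglandin receptors and nuclear receptors, 0 were called higher and 1 lower, with a median of -0.59. PTGFR, the receptor of prostaglandin F2 alpha, had 365, 3079 and 35.4 in prepubertal blastocysts and 171, 44.1 and 345 in adult blastocysts, against 6046, 1241 and 80202 in prepubertal and 5416, 6231 and 14448 in adult 8-16-cell embryos. Its difference was -5.03 (SE 1.0, limma adjusted p = 8.84e-05), on 1 of 3 probe sets, and the stages overlapped at the 3079 of prepubertal blastocyst replicate 2. PTGER4, a receptor of prostaglandin E2, differed by -2.93 (limma adjusted p = 0.0619), was above background on no blastocyst array, and was called in fits that left out prepubertal 8-16-cell replicate 3 (-3.60, limma adjusted p = 0.0173), adult 8-16-cell replicate 3 (-3.29) or prepubertal blastocyst replicate 3 (-3.38).

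Among 19 pregnancy-associated glycoproteins, PAG11 included, limma called 0 in either direction averaged over both origins (0 at an unadjusted p under 0.05, against 21.8% of all genes) and the median was -0.44. Of these genes 7 were at background on all 12 arrays, against 15.3% of all genes. PAG2 alone was above background on all 3 arrays of a group, with 3841, 322 and 702 in adult blastocysts, against 1777, 63.0 and 8.44 in prepubertal blastocysts and at most 675 in 8-16-cell embryos, all below background. Its stage difference was 1.64 averaged over origins (limma adjusted p = 0.465). Within an origin it was 3.75 in adult embryos (limma adjusted p = 0.213) and -0.47 in prepubertal embryos (limma adjusted p = 0.929). The smallest p of the list averaged over origins was that of PAG9, at -1.41 (limma adjusted p = 0.432).

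Of 16 genes of the prolactin and placental lactogen family and its signal path, 1 was called higher (PRL) and 1 lower (SOCS2), with a median of -0.34. PRL was called on 1 of its 6 probe sets. SOCS2, which damps growth hormone and prolactin signals, had 257, 749 and 15.5 in prepubertal and 807, 505 and 1197 in adult blastocysts, against 16623, 3677 and 780 in prepubertal and 5249, 2623 and 4229 in adult 8-16-cell embryos. Its difference was -3.28 (SE 1.0, limma adjusted p = 0.024), and it was not called in fits without prepubertal 8-16-cell replicate 1 (-2.73), prepubertal blastocyst replicate 3 (-2.64), adult 8-16-cell replicate 1 (-3.17) or adult blastocyst replicate 2 (-3.12). The prolactin receptor PRLR was above background on 1 of 12 arrays. The other measured members of the placental family, PRP1, PRP3, PRP4, PRP6, PRP9 and CSH2, were called in neither direction.

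Markers of the pituitary, the usual source of prolactin, were set beside PRL. POU1F1, the transcription factor that pituitary PRL cells require, and TSHB, a thyrotropin subunit, were at background on all 12 arrays. GH1, growth hormone, was above background on all 6 blastocyst arrays and on 4 of 6 arrays of 8-16-cell embryos, with a stage difference of 0.11. Summed signals of the 4 measured pituitary markers, PRL among them, were 8166 to 14523 in prepubertal and 6738 to 7838 in adult blastocysts, and 530 to 6934 in prepubertal and 3891 to 7906 in adult 8-16-cell embryos. These sums hold the signal of PRL Bt.16040.1.S1_at itself, 3321 to 8975 in blastocysts, so their height in blastocysts says nothing of a pituitary part. The part of pituitary cells in the PRL signal was not tested.

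Cumulus cells, which surround the oocyte, are known to make PTGS2, and their 9 measured markers were compared too. Of these 3 (PTX3, FSHR and AMH) were at background on all 12 arrays. INHBA was above background on 1 prepubertal and CYP19A1 on 1 adult 8-16-cell array, and neither on a blastocyst array. TNFAIP6 was above it on 1 prepubertal blastocyst, 1 adult blastocyst and 1 adult 8-16-cell array. FOXL2 was above it on 1 adult blastocyst and 1 adult 8-16-cell array. HAS2, the hyaluronan synthase of cumulus expansion, was above background on all 6 blastocyst arrays, at 463 to 1423 in prepubertal and 951 to 2746 in adult blastocysts, against 31.6 to 263 in prepubertal and 106 to 359 in adult 8-16-cell embryos, where 2 arrays were above background. STAR, which is also in the trophoblast list, went the other way, with 7.09 to 156 in prepubertal and 241 to 842 in adult blastocysts, against 910 to 11344 in prepubertal and 411 to 3821 in adult 8-16-cell embryos. It was above background on 2 of 6 blastocyst arrays and on all 6 arrays of 8-16-cell embryos, and its 11344 made most of the highest sum. Summed signals of the 9 were 1498 to 1904 in prepubertal and 1753 to 3809 in adult blastocysts, and 1374 to 13849 in prepubertal and 1208 to 4283 in adult 8-16-cell embryos. Their part in the PTGS2 signal was not tested.

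Of 27 products of early trophoblast, 7 were called higher and 2 lower, with a median of 0.94. LGALS3, a galactoside-binding lectin, had 45785 to 119277 in blastocysts against 4.80 to 222 in 8-16-cell embryos, a difference of 9.63 (SE 0.90, limma adjusted p = 2.33e-17). KRT18 differed by 7.33, the protease gene PLAU by 5.97, KRT8 by 5.76 and SSLP1, a secreted Ly-6 protein, by 4.51. TIMP1, a metalloprotease inhibitor, differed by 3.38 and CITED1, a transcriptional coactivator, by 3.24. TIMP1 was not called without prepubertal 8-16-cell replicate 1 (2.84) or 2 (3.14), adult blastocyst replicate 2 (2.95) or prepubertal blastocyst replicate 1 (2.92). CITED1 was lost in 8 of the 12 fits that left out an array, with differences from 2.86 to 3.18, and kept its call without prepubertal 8-16-cell replicate 3, adult 8-16-cell replicate 2, adult blastocyst replicate 1 or prepubertal blastocyst replicate 2. The cholesterol transporter gene STAR (-3.57) and the glucose transporter gene SLC5A1 (-3.55) were lower in blastocysts. STAR was not called without prepubertal 8-16-cell replicate 3 (-3.09), adult 8-16-cell replicate 1 (-3.19) or prepubertal blastocyst replicate 2 (-3.18). SLC5A1 was not called without prepubertal 8-16-cell replicate 3 (-2.58), adult 8-16-cell replicate 1 (-3.24), adult blastocyst replicate 1 (-3.34) or 2 (-3.34), or prepubertal blastocyst replicate 1 (-3.30). TIMP2, the related inhibitor, was called in prepubertal embryos (4.87, limma adjusted p = 0.0356) and not averaged over origins (2.94, limma adjusted p = 0.0559).

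**Figure D4:**
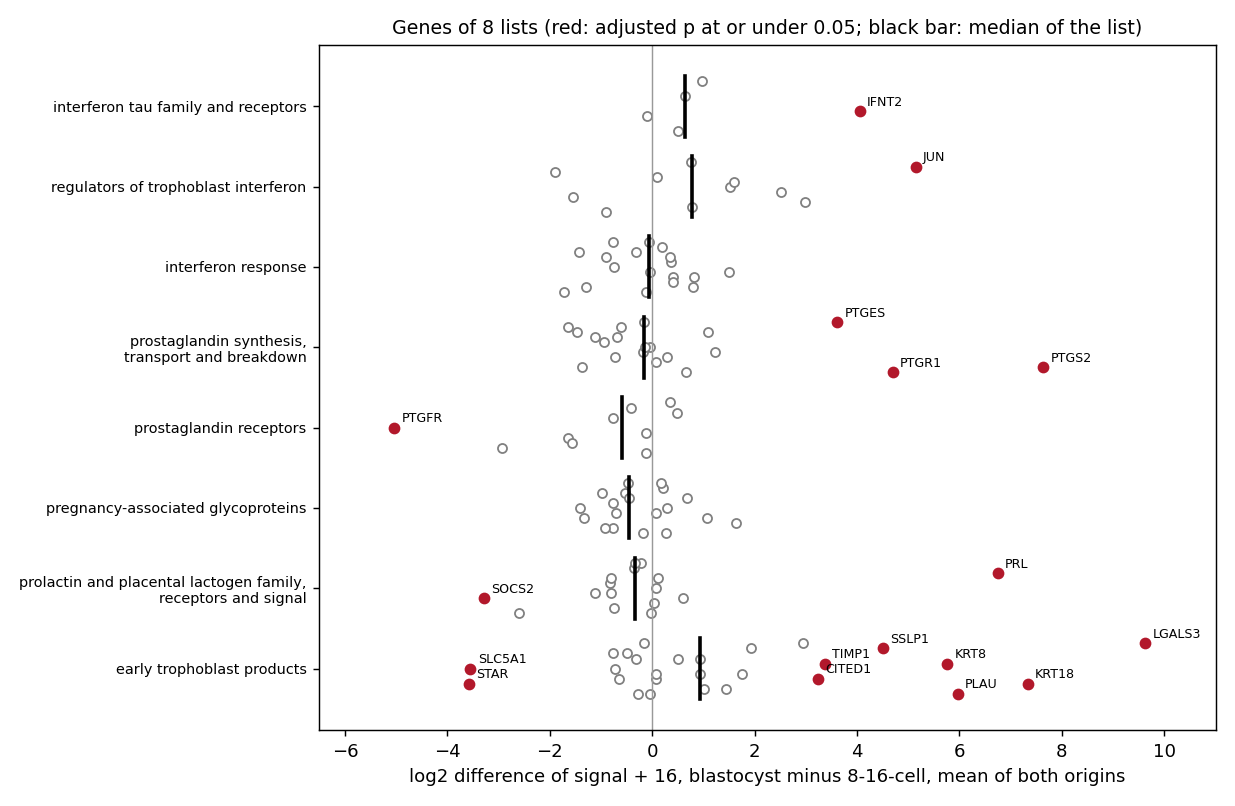
Log2 difference of signal + 16, blastocyst minus 8-16-cell averaged over both oocyte origins, for the genes of 8 lists; red points had a limma adjusted p at or under 0.05 and black bars mark list medians. PTGS2, PTGES and PTGR1 lie to the right in the prostaglandin list, where the other 17 genes are not red, and no gene of the interferon response or of the pregnancy-associated glycoproteins is red.

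The genes whose pattern over the 12 arrays was nearest to each member were found by the root mean square difference of their centred log2(signal + 16) values. For IFNT2, among 2439 candidate probe sets, these were S100A2 (1.34), CCN1 (1.40), CDKN2AIPNL (1.42) and PROS1 (1.44). S100A2, a calcium-binding protein, had 6637, 4526 and 15.8 in prepubertal blastocysts. CCN1, a secreted matrix-associated protein, had 1313, 1206 and 72.1 there. Both were picked for nearness over these same 12 arrays, so being dim in the pool where IFNT2 was dim is no separate result.

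For PTGS2 Bt.15758.1.S1_at, among 3335 candidate probe sets, the nearest were PLS1 (0.86), an actin-bundling protein of epithelia, ANXA1 (1.05), FN1 (1.06) and SCP2 (1.12). The PRL probe set Bt.16040.1.S1_at was itself at 1.01 from PTGS2, and 2.62 from IFNT2. For PRL Bt.16040.1.S1_at the nearest were SLC38A2 (0.72), an amino acid transporter, CLDN6 (0.74), a tight junction protein, TSPAN6 (0.93) and ACTG1 (0.93). For PRL Bt.1956.1.S1_at they were SDHB (1.02), SLC4A2 (1.12), ORMDL2 (1.14) and CIT (1.15). The arrays in these distances share stage, so any gene with a large stage difference is near PTGS2 and PRL. The likeness is a description and was not tested.

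**Figure D5:**
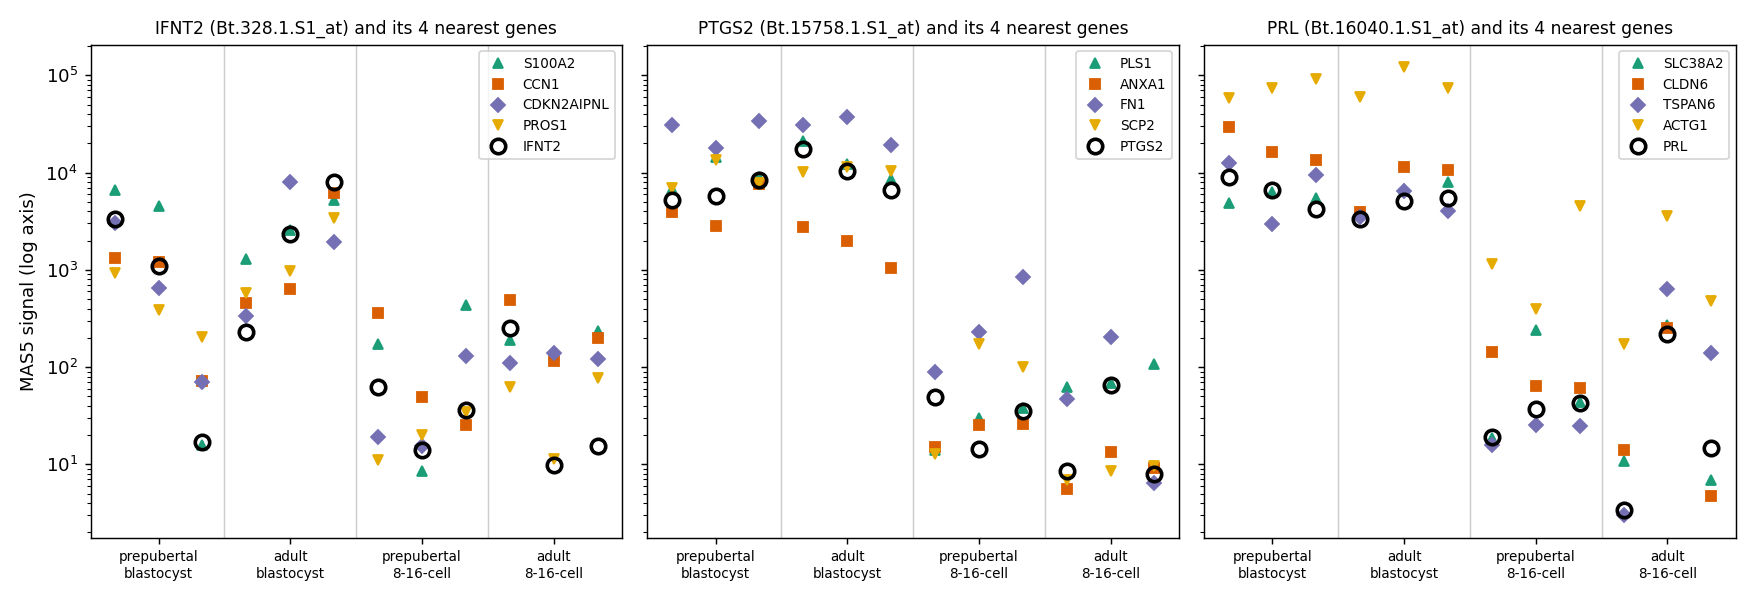
MAS5 signal (log axis) on the 12 arrays, in 4 groups of 3, for IFNT2, PTGS2 Bt.15758.1.S1_at and PRL Bt.16040.1.S1_at (open black circles) and for the 4 genes nearest to each. In the IFNT2 panel the circle of the third prepubertal blastocyst array, at 17.0, lies beside S100A2 at 15.8. The genes were picked for nearness over these same arrays.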

How the data were processed

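Total RNA of pooled embryos was amplified (WT-Ovation Pico), biotin-labelled and hybridized to an Affymetrix bovine array, per the labels' protocols. The deposited values are a linear signal intensity per probe set, made by the authors with MAS5, per the submitters' processing notes. No source used here names its version or settings. The trimmed mean (2% off each end) was 500 on all 12 arrays to within 1 unit, which the files show and no label states. Arrays carry no read depth, and their number limits the precision.

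Of 24128 probe sets, 112 controls were left out and 24016 tested. The annotation gave 1 gene to 13292, several to 86 and none to 10638. The members and lists were chosen with earlier results of these data known. limma 3.58.1 in R 4.3.3 fitted a mean per group to log2(signal + 16) on all 12 arrays (eBayes with trend, 8 residual and 196 prior degrees of freedom, so a probe set's own spread counts for little). Tests were two-sided, adjusted by Benjamini and Hochberg over 24016 probe sets. The fit was tested on simulated data. Permutation tests enumerated all arrangements. No label says if RNA of the Bacillus subtilis controls was spiked in, in which case the background would be set too high. From each list the text names genes past the threshold and the 2 of smallest p. IFNAR1, IFNAR2, ETS2, MX1, ISG15, PTGS1, HPGD, PTGES3, PAG2, PRLR, GH1, HAS2, STAR as a cumulus marker, TEAD4, ELF5, NLRP5, BMP15, GDF9, ZP3, ZP4 and the prolactin-related proteins were named after their values were seen. So were TNFAIP6, INHBA, CYP19A1 and FOXL2. Alternatives were another pseudocount, quantile normalization, a filter on dim probe sets, no variance trend, floors at background, array weights, a replicate block, 2-group fits and leaving out each array. Replicate numbers did not pair arrays (correlation of same-numbered deviations -0.027 to 0.0582 over 18 pairs). No genome build is named in the files, so no coordinates are given.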

Additional observations from a re-analysis of the deposited data

How the results depend on the processing

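Of 432 refits of 20 member differences, 404 kept their direction and their side of limma's threshold, and 10 of the 20 differences did so throughout. Signals floored at the highest background of any array, 1664, which takes the brightness of 1 array as the limit of all, left 0 members called in prepubertal and 1 in adult embryos, with differences of 1.91 (PTGS2 Bt.15758.1.S1_at) and 1.91 (PRL Bt.16040.1.S1_at) in prepubertal embryos, 1.44 (PRL Bt.16040.1.S1_at) and 0.45 (PRL Bt.1956.1.S1_at) in adult embryos and 0.62 for IFNT2 averaged over origins. With a floor at 424, chosen after seeing the data, PRL Bt.1956.1.S1_at in adult embryos (1.97) and IFNT2 averaged (1.81) were not called and IFNAC turned to -0.0946, while limma called 722 probe sets averaged over origins, against 377 with the floor at 1664 and 1538 without a floor. Over all probe sets, limma's 563 calls in prepubertal embryos became 154 and 274 with these floors, 927 with a filter on dim probe sets and at fewest 272 without 1 array, and its 512 calls in adult embryos became 99, 220, 935 and at fewest 253, with 889 under array weights and 794 without prepubertal 8-16-cell replicate 3. The 5 calls by origin at the 8-16-cell stage ran from 0 to 14 over the alternatives, those in blastocysts from 0 to 2 and those of the stage by origin difference from 0 to 1. IFNT2 in adult embryos was called with a filter on dim probe sets (4.79), with array weights (4.70) and with only the 2 groups fitted (4.79). PRL Bt.1956.1.S1_at was not called in adult embryos after quantile normalization (4.76), and averaged over origins it was called with a pseudocount of 64 (2.39), the filter (3.00), no variance trend (3.00) or array weights (3.14). Leaving out 1 array at a time gave ranges of 3.66 to 6.17 for IFNT2 in adult embryos, called without adult 8-16-cell replicate 1, adult blastocyst replicate 1 or prepubertal 8-16-cell replicate 3. The ranges were 4.63 to 5.99 for PRL Bt.1956.1.S1_at in adult embryos and 2.69 to 3.37 averaged, where it was called without adult 8-16-cell replicate 1 (3.37), prepubertal 8-16-cell replicate 3 (3.21) or adult blastocyst replicate 3 (3.32). The origin difference of IFNT2 in blastocysts ran from -3.13 to 0.21 and its stage by origin difference from -2.86 to 0.48, both turned by prepubertal blastocyst replicate 3, and that of PRL Bt.16040.1.S1_at from -0.49 to 1.32, turned by adult 8-16-cell replicate 2. With the second highest control as background, PTGS2 Bt.16478.1.A1_at was above it on 2 arrays and PRL Bt.7197.2.A1_at on 1. PRL Bt.16040.1.S1_at was above it on 7 arrays in place of 6, with adult 8-16-cell replicate 2 added (222). PRL Bt.1956.1.S1_at was above it on 6 in place of 5, with adult 8-16-cell replicate 1 added (111). Their adult bounds of 21.3-fold and 8.07-fold were computed with the highest control only. Of the list genes, the floor at 1664 ended the calls of JUN, PTGES, PTGR1, PTGFR, SOCS2, KRT8, SSLP1, TIMP1, STAR and SLC5A1 and left CITED1, dimmer on all arrays, without a value, and the floor at 424 those of SOCS2, SSLP1, TIMP1, STAR, SLC5A1 and CITED1. With the replicate number as a block, IFNT2 averaged over origins kept 4.05 (limma adjusted p = 0.00496), and the block changed no member's call. Beyond the floors' own construction, the cause of these changes was not tested.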

Other observations

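Probe sets of one gene often differed in whether they were called, as those of PTGS2 and PRL did. The direction and size of their differences were not compared, and a probe set just short of the threshold counts as not called. Of 2913 genes with 2 or more probe sets, 238 had at least 1 called higher in blastocysts averaged over origins, and in 213 of these (89.5%) not every probe set was called. The letter in the probe set's name went with the share called. Of 14578 probe sets with S, 5.08% were called higher and 20.7% were at background on all 12 arrays. Of 9438 with A, 2.07% were called higher and 31.4% were at background on all 12. The members called higher were 3 of the 5 with S and 0 of the 6 with A.

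GH1, a relative of PRL by sequence, had a pattern of its own. The brightest of its 6 probe sets had 1131, 1263 and 10105 in prepubertal blastocysts and 3335, 2677 and 1636 in adult blastocysts, against 348, 6688 and 303 in prepubertal and 3866, 7586 and 6186 in adult 8-16-cell embryos. The others were mostly at background. The highest value fell on prepubertal blastocyst replicate 3, the pool in which IFNT2 was at 17.0.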
